A study of Homo sapiens with 12 samples.

Results

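The comparison described here asked where dihydroartemisinin (DHA) changed RNA differently in LP-1 and in U266, both established human multiple myeloma cell lines. Its members were the genes matched between the expression tables of both lines that reached 1 FPKM (a fragment density scaled to transcript length and library size) in at least 3 of the 6 libraries of each line. They numbered 8931 of 18740 matched genes, from tables of 61806 genes for LP-1 and 19130 gene symbols for U266. Both lines carried the genotype label WT and were grown in RPMI-1640 with fetal bovine serum. Each received DHA at its IC50, a dose the labels give without its concentration, or the same amount of DMSO, for 12 h. The 4 groups, LP-1 with DMSO, LP-1 with DHA, U266 with DMSO and U266 with DHA, held 3 libraries each. Each line is a single established culture, so the 2 lines stand for themselves. The labels do not tell if replicates were grown apart, and all p-values then measure only the spread between these libraries, which may be technical.

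DHA is the compound into which the body turns artemisinin antimalarials. Iron and heme open its peroxide bridge, and the radicals that form attack proteins and lipids. The study's title names ferroptosis, a form of cell death driven by iron-dependent lipid peroxidation. Cells meet such damage with several gene programs: the integrated stress response, in which the factor ATF4 switches on amino acid supply genes, the heat shock response to misfolded cytosolic proteins, and the NRF2 response to oxidants. Myeloma cells are malignant plasma cells, which secrete large amounts of antibody and rely on the endoplasmic reticulum (ER), the proteasome and the factors IRF4 and MYC. Ribosome production, DNA replication and cholesterol synthesis are the programs of growing cells.

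For each gene the DHA change was the difference of log2(FPKM + 1) between DHA and DMSO libraries of one line, and the line difference was the change in LP-1 minus the change in U266. A positive line difference therefore means a more positive change in LP-1. The values after ± are standard errors for log2 changes and SDs (n = 3) for FPKM. Genes were called at an adjusted p under 0.05 (limma, two-sided, Benjamini-Hochberg over all 8931 genes). The tables of the lines were normalized separately, so each change was taken within its own table, and a difference between the lines cannot be told apart from a difference between the runs that produced the tables. FPKM levels of the lines are given side by side and were not tested against each other. Statements that they were alike, higher, lower or closer describe the printed values of separately made tables only.

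By the value of 1 read, LP-1 libraries had 13.4 to 17.5 M reads in genes and U266 libraries 10.3 to 21.8 M. The plasma cell markers SDC1 and TNFRSF17 were present in every library, CD38 and MZB1 were at 0.223 to 0.925 and 2.27 to 3.86 FPKM in U266, and the defining T cell and monocyte genes CD3E, CD14 and LYZ lay between 0 and 1.52 FPKM in all 12 libraries. CCND1 was high in U266 alone and FGFR3 in LP-1 alone. Of the LP-1 DMSO libraries, replicate 3 stood apart: its ribosomal protein genes lay 0.73 (log2) above the other replicates, and its deviation from them ran with exon length over genes (Spearman's rho = -0.59, a description over 8931 genes, which are not independent). The same ribosomal measure was -0.58 for replicate 2 and -0.19 for replicate 1, so the LP-1 controls were spread as a group. The median SD per gene was 0.18 in LP-1 with DMSO, against 0.055, 0.073 and 0.089 (log2) in LP-1 with DHA, U266 with DMSO and U266 with DHA. Of the U266 DHA libraries, replicate 3 listed 18399 genes above 0, against 14682 to 14992 in the other U266 libraries. Summed marker levels in U266 reached 21.7 FPKM for 9 B cell genes, 14.3 for 10 T and NK cell genes and 10.8 for 9 monocyte genes with DHA, against at most 8.85, 2.93 and 1.21 FPKM with DMSO, and all 3 maxima were in that library. The sum of 8 stromal and endothelial genes was higher in all 3 U266 DHA libraries, at 12.5, 5.84 and 10.2 FPKM, against 3.15 to 3.78 FPKM with DMSO. In bulk RNA, fewer cells of a type and less RNA per cell cannot be told apart. The part of these libraries in the results was not tested beyond the counts given without them.

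Of the 8931 genes, 3084 (34.5%) had a called line difference, more positive in LP-1 in 1653 (18.5%) and more negative in 1431 (16%). These shares over all tested genes are the reference for the counts of list members below. DHA changed 4051 genes in LP-1 (45.4%), of which 2240 rose (25.1%) and 1811 fell (20.3%), and 3870 genes in U266 (43.3%), of which 1996 rose (22.3%) and 1874 fell (21%). The LP-1 changes were the larger ones, with a median size of 0.32 against 0.19 (log2) in U266, and 541 genes changed at least 2-fold in LP-1 against 127 in U266. Changes in the lines ran together only loosely over genes (Pearson's r = 0.43, Spearman's rho = 0.34, a description over 8931 genes). Among the 1971 genes called in both lines, 1576 went the same way. The remaining 395 genes (4.42%) went opposite ways, and each of them also had a called line difference: 244 (2.73%) rose in LP-1 and fell in U266, and 151 (1.69%) fell in LP-1 and rose in U266.

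**Figure D1:**
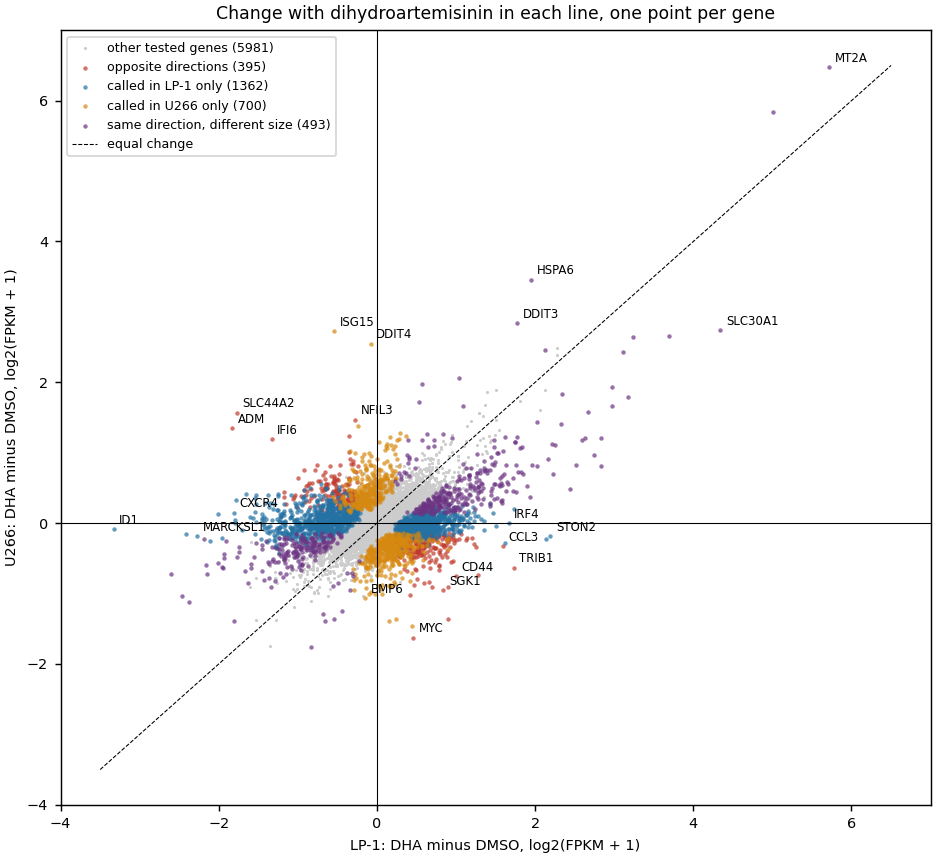
Each point is 1 of 8931 genes, with its DHA change in LP-1 on the horizontal axis and in U266 on the vertical axis, both as differences of log2(FPKM + 1). Colours mark the 395 genes that moved in opposite directions, the 1362 called in LP-1 only, the 700 called in U266 only and the 493 that changed the same way by different amounts, which lie off the dashed line of equal change.

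A further 1362 genes (15.3%) had a called line difference and a called change in LP-1 only, 652 up (7.3%) and 710 down (7.95%), and 700 genes (7.84%) in U266 only, 298 up (3.34%) and 402 down (4.5%). In the line without a call, the 95% limits of the change lay within 1.5-fold either way for 649 of the 652 and 625 of the 710 LP-1 genes, and for 253 of the 298 and 298 of the 402 U266 genes. The 3 DHA values did not overlap the 3 DMSO values in 242 of the 244 and 146 of the 151 genes in both lines, a separation found in 62.5% of all tested genes in LP-1, 53% in U266 and 34.8% in both. Separation largely follows from a call in both lines and is no separate support. It was also found in 683 of 687 genes that rose and 386 of 396 that fell in both lines with no called difference. These sets depended on the libraries. With LP-1 DMSO replicate 3 and U266 DHA replicate 3 both left out, an alternative added after seeing the data, 641 genes moved in opposite directions, 335 of them among the 395, and 2038 genes changed in LP-1 only, 1231 of them among the 1362. The same alternative gave 696 genes in U266 only, 406 of them among the 700. Of these 700, 427 stayed in the class without LP-1 DMSO replicate 3 alone and 185 when libraries were weighted (array weights). Without LP-1 DMSO replicate 3 alone there were 679 in opposite directions, and without LP-1 DMSO replicate 1 there were 265. Without LP-1 DHA replicate 1, 2 or 3 there were 198, 195 and 216, and when each test asked for a change beyond 1.5-fold there were 2. Genes in the set that rose in LP-1 and fell in U266 were long (median exon length 6018 bases) and those in the reverse set short (3851 bases), against 5152 bases for all tested genes. The line difference ran with exon length over genes (rho = 0.28), and the part of length was not tested beyond an alternative that removed the trend, which left 351 genes in opposite directions, 281 of them among the 395.

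Of the genes that rose in LP-1 and fell in U266, TRIB1, MYC, KCNA3, CCL3, HIPK2, SGK1, CD44 and RND3 had the largest line differences among those with separated groups. TRIB1, a pseudokinase that leads transcription factors to the COP1 ubiquitin ligase, was at 33.5, 35.5 and 30.9 FPKM in LP-1 with DMSO and at 114, 112 and 112 FPKM with DHA. U266 had TRIB1 at 99.3, 99 and 100.3 FPKM with DMSO and at 67.1, 61.2 and 63 FPKM with DHA. The replicates of each group lay close together, and DHA left LP-1 above and U266 below its own controls. The log2 changes were 1.73 ± 0.082 and -0.64 ± 0.048, a line difference of 2.37 ± 0.093 (adjusted p = 4.0e-08). MYC, the transcription factor that drives cell growth, went from 221, 221 and 180.4 FPKM to 293, 287 and 271 FPKM in LP-1. In U266, where MYC was at a far lower level in both groups, it went from 10.8, 9.69 and 9.58 FPKM to 1.90, 2.64 and 3.27 FPKM. No library of one group reached the other group in either line, although the LP-1 rise was small, with a log2 change of 0.46 ± 0.12 (adjusted p = 0.0179). The U266 change of MYC was -1.63 ± 0.13 and its line difference 2.09 ± 0.18 (adjusted p = 1.1e-05).

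CCL3, a chemokine of myeloma cells that promotes bone resorption, was at 7.07, 5.55 and 10.03 FPKM in LP-1 controls and at 24.9, 24.1 and 23.6 FPKM with DHA. Its U266 values were 59, 70.9 and 69.2 FPKM in controls and 56.7, 50.8 and 49.9 FPKM with DHA, so that the highest DHA library lay just below the lowest control. The changes were 1.59 ± 0.18 in LP-1 and -0.33 ± 0.073 in U266, with a line difference of 1.92 ± 0.21 (adjusted p = 5.8e-05). CD44, a receptor for hyaluronan in the marrow matrix, rose in LP-1 from 6.09, 6.47 and 5.30 FPKM to 12.4, 13.2 and 13.2 FPKM. It fell in U266 from 28.5, 27.4 and 29.2 FPKM to 16, 16.9 and 16.4 FPKM. The DHA libraries of the lines lay closer together than the controls, with a line difference of 1.76 ± 0.10 (adjusted p = 7.8e-07). KCNA3, the voltage-gated potassium channel Kv1.3 of lymphocytes, was low in LP-1 at 1.90, 2.64 and 1.54 FPKM and reached 6.38, 6.17 and 6.27 FPKM with DHA. In U266 KCNA3 went from 26.6, 22.5 and 23.5 FPKM to 14.5, 16.3 and 11.9 FPKM, with every DHA library below every control and a line difference of 2.02 ± 0.19 (adjusted p = 1.9e-05).

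HIPK2, a nuclear kinase that phosphorylates p53, was at 4.79, 7.66 and 2.61 FPKM in LP-1 controls, spread widely, and at 10.6, 9.67 and 8.51 FPKM with DHA. The U266 values of HIPK2 were 37.7, 32.2 and 38.3 FPKM and 17.2, 20.2 and 18.6 FPKM, and the means 36.1 ± 3.36 and 18.7 ± 1.52 FPKM. Its line difference was 1.81 ± 0.33 (adjusted p = 0.00148), and the p-value was the highest of these 8 genes. SGK1, a kinase induced by serum and glucocorticoids, went from 2.39, 2.46 and 2.38 FPKM to 5.32, 4.95 and 5.05 FPKM in LP-1. SGK1 was far higher in U266 controls, at 46.1, 44.9 and 43.3 FPKM, and fell to 22.4, 22.9 and 22.5 FPKM. Both groups were tight, and the line difference was 1.80 ± 0.083 (adjusted p = 1.7e-07). RND3, a small GTP-binding protein that opposes the kinase ROCK1, went from 13.6, 12.9 and 15.4 FPKM to 23.2, 22.3 and 24.2 FPKM in LP-1 and from 11.5, 12 and 11.8 FPKM to 6.28, 5.45 and 5.75 FPKM in U266. The lines had similar control levels of RND3 and moved apart by 1.60 ± 0.11 (adjusted p = 2.1e-06).

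**Figure D2:**
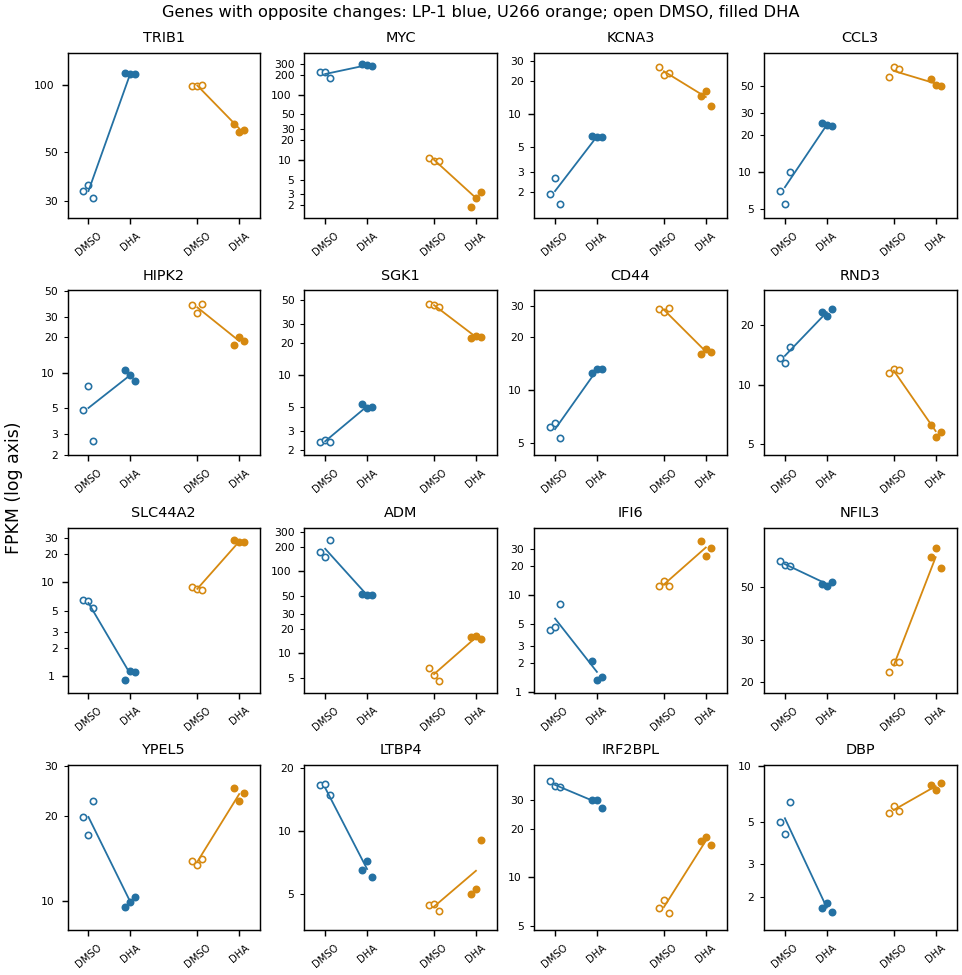
FPKM on a log axis for the 16 named genes that moved in opposite directions, with LP-1 in blue and U266 in orange, open points for the 3 DMSO and filled points for the 3 DHA libraries, and lines joining group means. In the upper 8 panels the blue line climbs and the orange line falls (TRIB1 line difference 2.37, log2), and the lower 8 panels show the reverse (SLC44A2 line difference -3.34).

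In the reverse set, which fell in LP-1 and rose in U266, the named genes were SLC44A2, ADM, IFI6, NFIL3, YPEL5, LTBP4, IRF2BPL and DBP. SLC44A2, a choline transporter-like protein of the plasma membrane, fell in LP-1 from 6.54, 6.29 and 5.33 FPKM to 0.920, 1.15 and 1.11 FPKM. It rose in U266 from 8.87, 8.51 and 8.30 FPKM to 28.1, 26.7 and 27.2 FPKM. The controls of the lines were alike in FPKM, while the DHA means were 1.06 ± 0.123 and 27.3 ± 0.717 FPKM. Its line difference of -3.34 ± 0.11 (95% limits -3.59 to -3.09, adjusted p = 1.5e-08) was the largest in size of all 8931 genes. ADM, the hypoxia-induced peptide hormone adrenomedullin, fell in LP-1 from 173, 151 and 244 FPKM to 52.5, 50.9 and 51 FPKM. In U266 it rose from 6.59, 5.51 and 4.67 FPKM to 15.9, 16.3 and 14.9 FPKM. The LP-1 DHA libraries of ADM agreed closely and lay below every LP-1 control, yet still above every U266 library. The changes of ADM were -1.83 ± 0.17 and 1.35 ± 0.10, with a line difference of -3.18 ± 0.21 (adjusted p = 1.9e-06).

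NFIL3 and DBP encode factors that bind the same promoter element of clock-controlled genes, NFIL3 as a repressor and DBP as an activator. NFIL3 went from 64.4, 61.9 and 61.5 FPKM to 51.7, 50.6 and 52.7 FPKM in LP-1 and from 22, 24.2 and 24.2 FPKM to 67.3, 73 and 60.4 FPKM in U266. DBP went from 5.01, 4.35 and 6.42 FPKM to 1.73, 1.85 and 1.65 FPKM in LP-1 and from 5.61, 6.14 and 5.73 FPKM to 7.89, 7.42 and 8.16 FPKM in U266. The larger move was in U266 for NFIL3 and in LP-1 for DBP, and the line differences were -1.74 ± 0.11 (adjusted p = 8.5e-07) and -1.55 ± 0.15 (adjusted p = 2.4e-05). YPEL5, a subunit of the CTLH ubiquitin ligase, fell in LP-1 from 19.8 ± 2.71 to 9.91 ± 0.395 FPKM and rose in U266 from 13.8 ± 0.379 to 23.9 ± 1.31 FPKM. IRF2BPL, a nuclear protein related to the partners of IRF2, fell in LP-1 from 37.4 ± 1.70 to 29.1 ± 1.73 FPKM and rose in U266 from 6.55 ± 0.626 to 16.9 ± 0.996 FPKM. LTBP4, which anchors latent TGF-beta in the matrix, fell in LP-1 from 16.1 ± 1.03 to 6.58 ± 0.596 FPKM. For LTBP4 the U266 rise rested on a wide DHA group of 4.99, 5.31 and 9.07 FPKM against 4.44, 4.47 and 4.16 FPKM in controls, in which the third DHA library was the library that stood apart (change 0.44 ± 0.16, adjusted p = 0.0467). The line differences of YPEL5, IRF2BPL and LTBP4 were -1.68 ± 0.13, -1.59 ± 0.11 and -1.61 ± 0.22. Without that U266 library the line difference of LTBP4 was -1.37.

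IFI6, an interferon-induced protein of the mitochondrial membrane, fell in LP-1 from 4.37, 4.67 and 8.10 FPKM to 2.07, 1.34 and 1.43 FPKM. It rose in U266 from 12.3, 13.9 and 12.3 FPKM to 36.4, 25.3 and 30.8 FPKM. All DHA libraries were below the controls in LP-1 and above them in U266, and the line difference was -2.52 ± 0.27 (adjusted p = 4.8e-05). IFI6 belonged to a list of interferon-stimulated genes, of which 16 of 40 were tested. In U266 12 of them rose and 2 fell (median change 0.54), and in LP-1 4 rose and 3 fell (median 0.15). Their line difference was called in 8 genes, all more negative in LP-1 (median -0.57), where all tested genes had a median line difference of 0.017. Among them were ISG15, IFI6, IRF7, IFI35, PARP14, IFIH1 and SP100, and the median line difference ran from -0.64 to -0.34 over the alternatives, with 2 to 11 genes called negative. In U266 the stromal and endothelial marker sum given above was also higher in all 3 DHA libraries, and the monocyte, T and B cell sums were highest in DHA replicate 3. Their part in the interferon result was not tested. With that library and LP-1 DMSO replicate 3 left out, 10 of the 16 were called more negative and 1 more positive in LP-1.

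ISG15, a ubiquitin-like modifier that interferon induces, was near the floor in LP-1, at 1.20, 0.770 and 2.32 FPKM with DMSO and 0.540, 1.19 and 0.240 FPKM with DHA. In U266 it went from 0.559, 1.75 and 1.76 FPKM to 18.5, 12.7 and 11.7 FPKM. The U266 groups were far apart and the LP-1 groups overlapped, so that ISG15 was called in U266 only (U266 change 2.72 ± 0.21, LP-1 change -0.54 ± 0.28 with adjusted p = 0.150). Its line difference was -3.26 ± 0.41 (adjusted p = 1.5e-04). IRF7, the factor that amplifies interferon production, rose in both lines, by 0.54 and 1.72. IFIH1, the sensor of double-stranded RNA also called MDA5, fell by 0.38 in LP-1 and rose by 0.53 in U266. Interferon is known to act through the interferon-stimulated response element, whose core, GAAA and GAAA with 2 bases of any kind between them, was searched on both strands in RefSeq promoters (GRCh38.p14, 250 bases before to 50 after the start). It was present in 8 of the 14 list members with a promoter (57.1%), in 2.66% of 7480 promoters of tested genes and in 3.65% of all 27305 promoters. The promoters of IFI6 (chr1:27672143-27672442, minus strand, 3 matches) and ISG15 (chr1:1013247-1013546, plus strand, 2 overlapping matches) are shown because these genes had the largest line differences of the list, with the matches in capitals.
IFI6: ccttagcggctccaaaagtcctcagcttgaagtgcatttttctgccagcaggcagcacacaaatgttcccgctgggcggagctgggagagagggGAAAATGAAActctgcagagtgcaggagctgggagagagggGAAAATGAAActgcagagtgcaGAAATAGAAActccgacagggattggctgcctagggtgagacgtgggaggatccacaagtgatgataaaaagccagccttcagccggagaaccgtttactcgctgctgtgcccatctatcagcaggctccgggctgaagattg
ISG15: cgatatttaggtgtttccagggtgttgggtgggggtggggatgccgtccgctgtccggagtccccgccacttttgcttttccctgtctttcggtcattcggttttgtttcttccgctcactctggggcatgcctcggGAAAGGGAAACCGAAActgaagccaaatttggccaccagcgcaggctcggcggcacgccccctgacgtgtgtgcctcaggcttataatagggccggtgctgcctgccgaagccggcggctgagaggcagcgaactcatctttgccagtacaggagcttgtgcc
Both genes carry the core in the 200 bases before their start, although only IFI6 fell in LP-1, where interferon list members changed in both directions. A match is a description of these letters and was not tested for binding. Of the 10 motifs searched, only the interferon and metal response elements are shown with sequences. The sterol regulatory element (TCACNCCAC) was in 1 of 19 cholesterol list promoters, and those of MSMO1 and HMGCS1 had no match. The amino acid response element core (TGATGNAA) was in 5 of 24 promoters of ATF4 targets, and that of DDIT4 had none. The ADM promoter had no match to the E-box (CACGTG).

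Of the genes that changed in LP-1 only, the largest rises among those whose U266 change had 95% limits within 1.5-fold either way were those of STON2, STEAP1, LAIR1, IRF4 and SELENOI. IRF4, the transcription factor that myeloma cells need to survive, went from 83.5, 92.1 and 64.2 FPKM to 260.0, 254 and 244 FPKM in LP-1. In U266 it was at 186, 174 and 177 FPKM and at 180.0, 186 and 171 FPKM with DHA. The U266 groups overlapped fully, with a change whose 95% limits were -0.11 to 0.11, while LP-1 changed by 1.66 ± 0.14 (line difference 1.66 ± 0.15, adjusted p = 1.9e-05). STEAP1, a heme-binding membrane protein of the STEAP family, rose in LP-1 from 37.9, 32 and 43.7 FPKM to 164, 168 and 175 FPKM. U266 held STEAP1 at 4.21, 3.75 and 2.76 FPKM and at 3.04, 2.61 and 3.04 FPKM with DHA, and these groups overlapped. STON2, an adaptor of endocytosis, rose in LP-1 from 4.26 ± 1.42 to 22.5 ± 1.90 FPKM, and in U266 it was at 6.27 ± 0.747 and 5.37 ± 0.323 FPKM. The U266 DHA values of STON2 lay just below all controls, a change of -0.19 ± 0.092 that was not called. LAIR1, an inhibitory collagen receptor of immune cells, rose from 5.76 ± 0.860 to 21.4 ± 0.484 FPKM in LP-1 against 6.04 ± 0.521 and 7.09 ± 0.604 FPKM in U266. SELENOI, the selenoprotein that makes phosphatidylethanolamine, rose from 8.48 ± 1.68 to 25.6 ± 0.286 FPKM in LP-1 and reached the level of U266, 27.8 ± 0.767 and 27 ± 1.49 FPKM. The line differences of STEAP1, STON2, LAIR1 and SELENOI were 2.36 ± 0.18, 2.38 ± 0.22, 1.53 ± 0.14 and 1.54 ± 0.15, with adjusted p-values between 4.8e-06 and 2.9e-05.

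Under the same limit, the largest falls in LP-1 only were those of ID1, YPEL3, MARCKSL1, ID2 and CXCR4. ID1 and ID2 encode inhibitors of basic helix-loop-helix transcription factors. ID1 fell in LP-1 from 104, 95.4 and 179.6 FPKM to 11, 11 and 11.6 FPKM, and U266 had 1.11, 3.34 and 1.79 FPKM with DMSO and 1.57, 1.58 and 2.23 FPKM with DHA. ID2 fell in LP-1 from 58.4, 51.5 and 64.6 FPKM to 13, 14.5 and 15.2 FPKM, against 4.23, 4.73 and 4.44 FPKM and 3.56, 3.40 and 4.23 FPKM in U266. Both were low in U266 before treatment, where their groups overlapped for ID1 and touched for ID2. The line differences were -3.24 ± 0.36 for ID1 and -1.74 ± 0.14 for ID2. CXCR4, the receptor for CXCL12 that holds plasma cells in the marrow, fell in LP-1 from 83.3, 73.5 and 88 FPKM to 21.5, 23.1 and 23 FPKM. In U266 it was at 159, 152 and 161 FPKM and at 187, 169 and 167 FPKM with DHA. The U266 DHA libraries all lay above the controls by a small step that missed the threshold (change 0.15 ± 0.055, adjusted p = 0.0523), and the line difference was -1.95 ± 0.11 (adjusted p = 7.6e-07). MARCKSL1, an actin-binding protein, fell in LP-1 from 172 ± 30.6 to 34.3 ± 1.05 FPKM and was at 2.42 ± 0.136 and 2.04 ± 0.619 FPKM in U266. YPEL3, a paralog of YPEL5 that restrains growth, fell in LP-1 from 11.3 ± 1.40 to 1.29 ± 0.202 FPKM, against 6.30 ± 0.960 and 5.50 ± 0.221 FPKM in U266. Their line differences were -2.09 ± 0.20 and -2.26 ± 0.16.

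**Figure D3:**
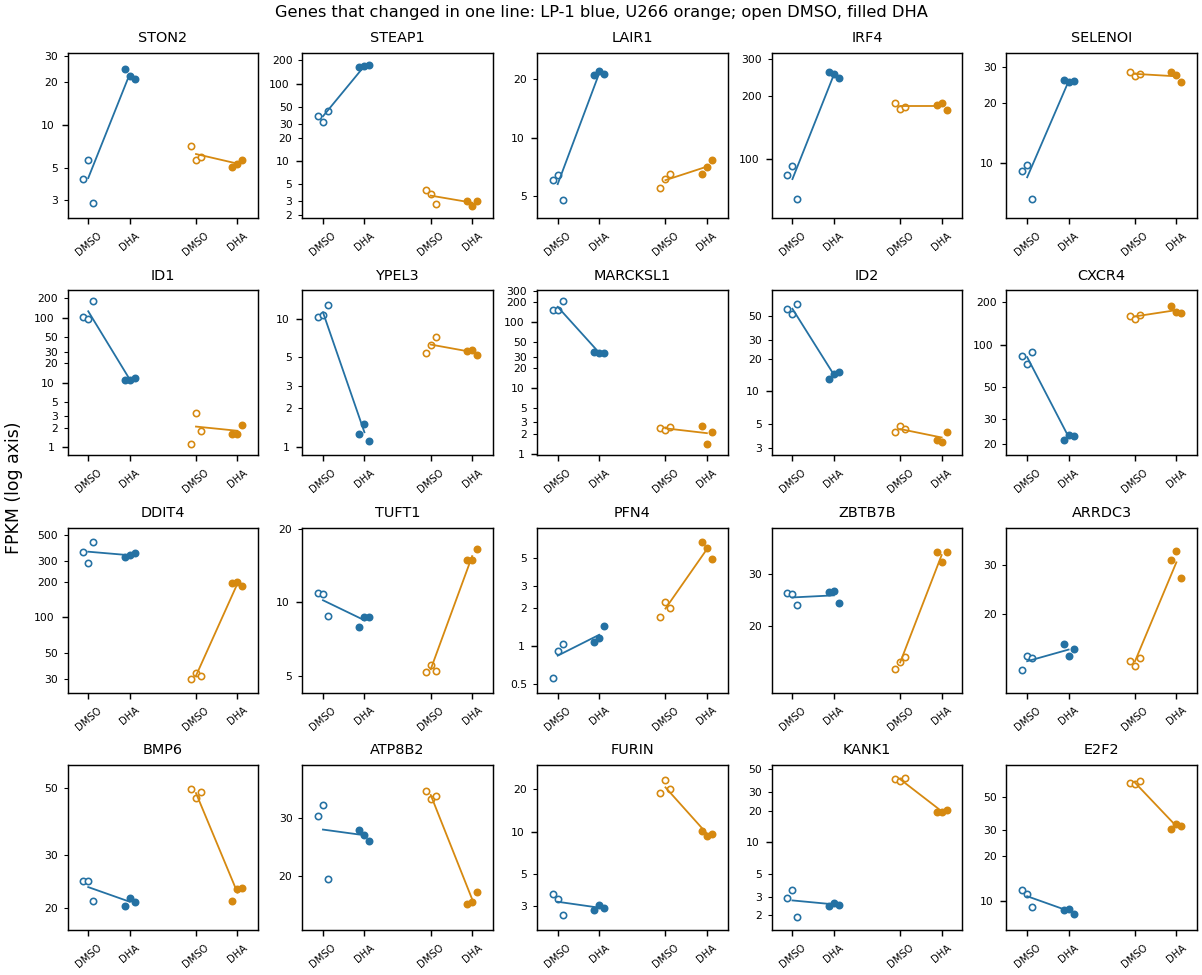
FPKM on a log axis for the 20 named genes called in one line only, with LP-1 in blue, U266 in orange, open DMSO and filled DHA points (3 libraries each) and lines joining group means. The upper 2 rows show genes called in LP-1, such as IRF4 (LP-1 change 1.66, U266 change 0.00, log2), and the lower 2 rows genes called in U266, such as DDIT4 (U266 change 2.55, LP-1 change -0.079).

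Of the genes that changed in U266 only, the largest rises among those whose LP-1 change had 95% limits within 1.5-fold either way were those of DDIT4, TUFT1, PFN4, ZBTB7B and ARRDC3. DDIT4, a stress-induced inhibitor of the growth kinase complex mTORC1, went in U266 from 30.3, 33.9 and 31.9 FPKM to 195, 199 and 183 FPKM. In LP-1 it was at 354, 286 and 435 FPKM and at 323, 334 and 347 FPKM with DHA. LP-1 controls were thus above the treated U266 libraries, and the LP-1 groups overlapped (change -0.079 ± 0.16, 95% limits -0.46 to 0.31). Its line difference was -2.63 ± 0.17 (adjusted p = 1.8e-06). ARRDC3, an arrestin-like adaptor of receptor turnover, went in U266 from 13.6, 13 and 14 FPKM to 31.2, 33.9 and 27.1 FPKM, and LP-1 had 13.6 ± 0.804 and 14.9 ± 0.744 FPKM. ZBTB7B, a transcription factor of helper T cell fate, rose in U266 from 15.1 ± 0.682 to 34.8 ± 1.49 FPKM, against 25.1 ± 1.23 and 25.5 ± 1.33 FPKM in LP-1. TUFT1, a membrane traffic protein first known from tooth enamel, rose in U266 from 5.31 ± 0.173 to 15.4 ± 0.976 FPKM, against 10.2 ± 1.21 and 8.43 ± 0.453 FPKM in LP-1. PFN4, of the actin-binding profilin family, rose in U266 from 1.99 ± 0.281 to 5.88 ± 0.905 FPKM, against 0.843 ± 0.254 and 1.23 ± 0.193 FPKM in LP-1. ARRDC3 groups overlapped in LP-1 and started from alike controls in both lines. In LP-1 the DHA values of TUFT1 lay below and those of PFN4 above all controls. These LP-1 changes, -0.24 ± 0.10 and 0.28 ± 0.12, were not called. The line differences were -0.99 ± 0.12 for ARRDC3, -1.13 ± 0.10 for ZBTB7B, -1.62 ± 0.12 for TUFT1 and -0.92 ± 0.19 for PFN4.

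Under the same limit, the largest falls in U266 only were those of BMP6, ATP8B2, FURIN, KANK1 and E2F2. BMP6, a bone morphogenetic protein that controls the iron hormone hepcidin, fell in U266 from 49.5, 46.1 and 48.4 FPKM to 21, 23.1 and 23.2 FPKM. In LP-1 it was at 24.6, 24.6 and 21 FPKM and at 20.3, 21.5 and 20.9 FPKM with DHA, where the groups overlapped. DHA left U266 at the BMP6 level of LP-1, and the line difference was 0.91 ± 0.10 (adjusted p = 8.2e-05). FURIN, the protease that cleaves pro-proteins in the Golgi, fell in U266 from 20.6 ± 2.29 to 9.69 ± 0.393 FPKM, and KANK1, an adaptor at focal adhesions, from 39.9 ± 1.03 to 19.7 ± 0.558 FPKM. Both lay between 1.95 and 3.62 FPKM in all LP-1 libraries. ATP8B2, a phospholipid flippase, fell in U266 from 35.2 ± 1.03 to 17 ± 0.778 FPKM, against 27.6 ± 7.12 and 26.6 ± 1.03 FPKM in LP-1. E2F2, a factor that switches on S phase genes, fell in U266 from 62.3 ± 1.75 to 31.8 ± 1.28 FPKM. For E2F2 the LP-1 DHA values were also below all controls, with a change of -0.29 ± 0.11 that was not called (adjusted p = 0.0641), and its line difference was 0.66 ± 0.12. The line differences of BMP6, ATP8B2, FURIN, KANK1, E2F2, PFN4, ARRDC3 and HIPK2 were no longer called when a change beyond 1.5-fold was asked for.

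Genes that changed the same way by different amounts numbered 493. LP-1 rose further in 275 (3.08%) and fell further in 175 (1.96%), and U266 rose further in 31 (0.347%) and fell further in 12 (0.134%). KIF21B, a kinesin motor, rose from 9.93 ± 4.11 to 55.2 ± 3.76 FPKM in LP-1 and from 15.2 ± 0.226 to 21.7 ± 0.514 FPKM in U266. BAG3, the co-chaperone that joins HSP70 to autophagy, rose from 7.21, 7.68 and 6.54 FPKM to 55.4, 52.5 and 52.4 FPKM in LP-1 and from 12.2, 12.1 and 13.2 FPKM to 26.2, 23.2 and 26.5 FPKM in U266. SLC1A4, a neutral amino acid transporter, rose by 2.51 ± 0.12 in LP-1 and 0.83 ± 0.052 in U266. In these 3 genes the LP-1 control was the lower one and the LP-1 DHA value the higher one, with line differences of 1.96 ± 0.30, 1.78 ± 0.11 and 1.69 ± 0.14. LGMN, the lysosomal protease legumain, fell from 451 ± 44.3 to 98.3 ± 1.05 FPKM in LP-1 and from 8.93 ± 0.596 to 7.46 ± 0.222 FPKM in U266. RCN3, a calcium-binding ER protein, fell by 2.16 in LP-1 and by 0.59 in U266, and TUBG2, a gamma-tubulin, by 1.90 and 0.26. The falls were steeper in LP-1, with line differences of -1.95 ± 0.11 for LGMN, -1.64 ± 0.12 for TUBG2 and -1.57 ± 0.18 for RCN3.

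In the ribosome biogenesis list, which holds factors that make and process ribosomal RNA, 16 of 34 tested genes rose and none fell in LP-1, while 1 rose and 20 fell in U266 (median changes 0.27 and -0.19, against 0.049 and 0.018 over all tested genes). The line difference was called in 21, all more positive in LP-1 (median 0.47, 0.35 to 0.57 over the alternatives), and 8 genes moved in opposite directions: NOP56, NOP14, NOLC1, RRP12, UTP4, UTP20, POLR1A and POLR1B. POLR1A, the largest subunit of RNA polymerase I, rose in LP-1 from 4.76, 5.82 and 2.20 FPKM to 8.36, 8.76 and 7.59 FPKM and fell in U266 from 15.4, 14.1 and 16 FPKM to 10.4, 10.5 and 10.7 FPKM. UTP20, of the complex that processes the small subunit, went from 2.29, 2.97 and 1.47 FPKM to 4.59, 4.59 and 4.39 FPKM in LP-1 and from 14.3, 12.7 and 13.7 FPKM to 10.1, 10.1 and 9.04 FPKM in U266. Their groups were separated in both lines, and the line differences were 1.37 ± 0.29 and 1.23 ± 0.19. NCL and NPM1, the abundant nucleolar proteins, had changes of 0.23 and 0.028 in LP-1 and of -0.35 and -0.16 in U266. Without the libraries that stood apart, 26 of the 34 were called and 12 moved in opposite directions. Over all alternatives 1 to 29 were called more positive in LP-1 and 0 to 17 moved in opposite directions. MYC, known to switch on genes of this list, also rose in LP-1 and fell in U266, and a link was not tested.

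In the DNA replication list, 15 of 45 genes rose and 8 fell in LP-1, while 3 rose and 25 fell in U266 (medians 0.10 and -0.30). The line difference was called more positive in LP-1 in 22 and more negative in 1, RPA1, and its median was 0.33 (0.30 to 0.49 over the alternatives). The alternatives called 4 to 31 genes more positive in LP-1 and put 0 to 14 in opposite directions. MCM5, MCM7, MCM10, CDC45, POLA1 and UHRF1 rose in LP-1 and fell in U266. MCM5, a subunit of the replicative helicase, went from 11.1, 9.96 and 9.55 FPKM to 17.9, 18.8 and 18 FPKM in LP-1 and from 30.9, 32.1 and 32 FPKM to 19.9, 19.7 and 19.2 FPKM in U266. UHRF1, which keeps DNA methylation through replication, went from 2.03, 2.23 and 2.12 FPKM to 3.83, 3.56 and 3.75 FPKM and from 25.9, 26.4 and 24.5 FPKM to 14.3, 12.3 and 14.7 FPKM. With DHA the FPKM values of the lines lay closer together for MCM5 and UHRF1, whose line differences were 1.44 ± 0.092 and 1.45 ± 0.11. Of the other helicase subunits, MCM6 rose in LP-1 only (1.10 against -0.028), and MCM2, MCM3 and MCM4 fell in U266 only, by 0.60, 0.66 and 0.75. CDC6, which loads the helicase, rose in both lines, by 1.43 and 0.28. The cyclin E genes CCNE1 and CCNE2 and the factor E2F1 fell in both lines with no called difference. In the mitosis list 6 of 33 genes rose and 6 fell in LP-1, 8 and 8 in U266. The line difference was called in 5 and 4, against 34.5% of all tested genes in either direction. PTTG1, the securin that guards sister chromatids, fell by 1.22 in LP-1 and 0.46 in U266, a difference lost under 6 of the 26 alternatives, and the mitotic kinase AURKB fell in LP-1 only (-0.60 ± 0.14 against 0.11 ± 0.065). Of 23 replication-dependent histone genes, 7 were called more positive and 5 more negative, and H1-2 and H2AC17 fell in LP-1 and rose in U266 (line differences -1.21 ± 0.29 and -1.20 ± 0.34), with U266 groups that overlapped.

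In the cholesterol list, 11 of 25 genes rose and 1 fell in LP-1, while 1 rose and 12 fell in U266 (medians 0.26 and -0.16). The line difference was called more positive in LP-1 in 12 and more negative in 2, TM7SF2 and STARD4, with a median of 0.32 (0.24 to 0.62 over the alternatives). Positive calls ran from 4 to 17 over the alternatives, and genes in opposite directions from 0 to 8. ACAT2, IDI1, SQLE and MSMO1, enzymes of the pathway, rose in LP-1 and fell in U266. MSMO1, a sterol demethylase, went from 14.9, 13.4 and 16 FPKM to 28.6, 26.8 and 28.4 FPKM in LP-1 and from 36.4, 37.5 and 37.9 FPKM to 31.3, 26.7 and 26.1 FPKM in U266. The groups did not overlap in either line, and the line difference was 1.28 ± 0.12. HMGCS1, the first committed enzyme of the mevalonate pathway, rose in LP-1 only, from 9.98 ± 0.503 to 20.5 ± 0.495 FPKM, against 23.9 ± 0.519 and 23.1 ± 1.27 FPKM in U266. Of 17 genes of fatty acid synthesis and desaturation, 5 were called more positive and 3 more negative in LP-1. FASN, the fatty acid synthase, fell in U266 only, from 20.1, 19.3 and 21.3 FPKM to 6.67, 7.65 and 6.98 FPKM, while LP-1 had 18.8, 20.6 and 11.1 and 18.5, 19.6 and 16.4 FPKM. SREBF1, which encodes the lipid synthesis factor SREBP-1, had a called fall in LP-1 only (-0.57 ± 0.10). Its line difference of -1.01 ± 0.24 was larger in size than the LP-1 change, since the uncalled U266 change was positive.

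**Figure D4:**
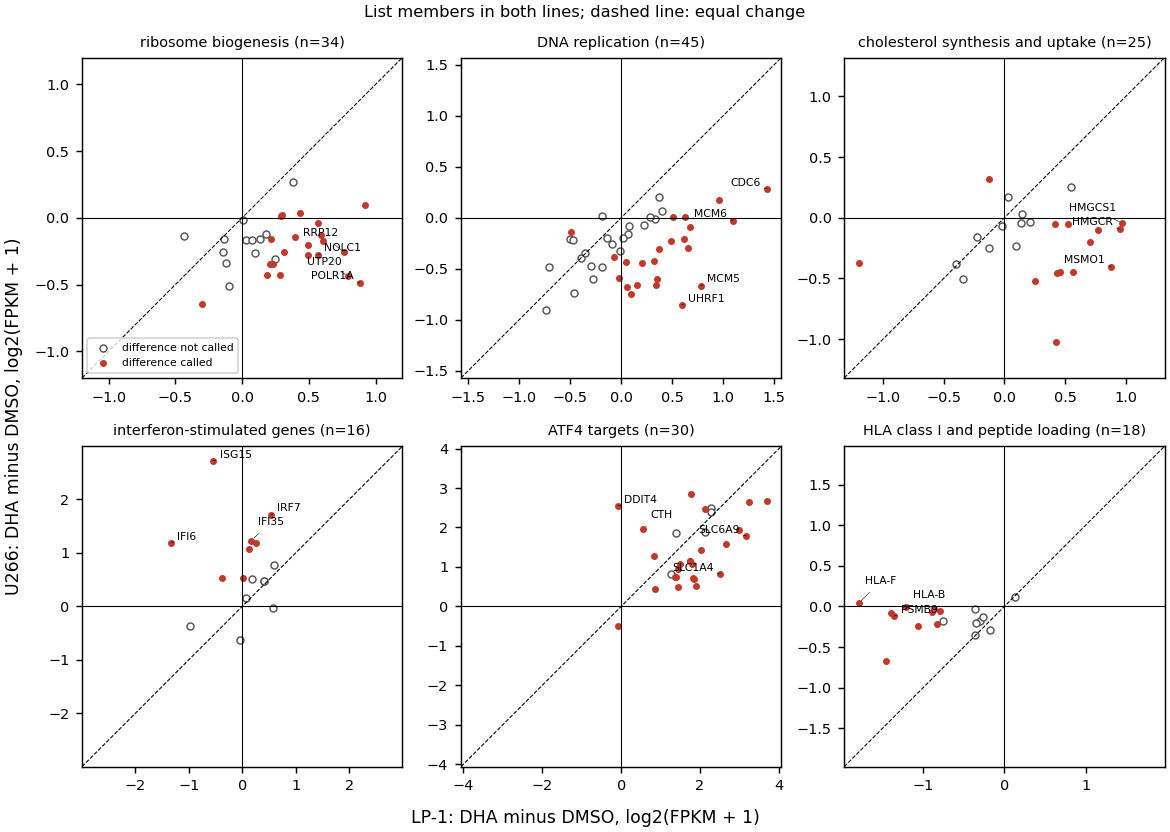
Each panel plots the members of 1 gene list by their DHA change in LP-1 (horizontal) and in U266 (vertical), both as differences of log2(FPKM + 1), with filled points where the line difference was called and a dashed line of equal change. Called members of the ribosome biogenesis, DNA replication and cholesterol lists (21 of 34, 23 of 45 and 14 of 25) lie mostly right of the line, and those of the interferon (8 of 16) and HLA class I (10 of 18) lists left of it.

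In the HLA class I and peptide loading list, 12 of 18 genes fell in LP-1 and 6 in U266, none rose, and 10 were called more negative in LP-1 (median line difference -0.68, -0.77 to -0.56 over the alternatives, with 1 to 14 genes called). HLA-F, a non-classical class I chain, fell from 10.6, 9.66 and 14.2 FPKM to 2.57 ± 0.0945 FPKM (SD, n = 3) in LP-1 and was at 1.82, 1.86 and 1.52 FPKM and at 2.03, 1.44 and 1.99 FPKM with DHA in U266. The LP-1 groups were well apart and the U266 groups overlapped, with a line difference of -1.83 ± 0.18. HLA-B, HLA-C, HLA-E, TAP1 and PSMB9 also fell in LP-1 only. HLA genes are polymorphic and alike in sequence, so their reads may be shared between members. In the HLA class II list, 7 of 9 genes fell in each line, and 7 had a called line difference that was more negative in LP-1 (medians -0.95 and -0.37), or 0 to 8 over the alternatives. HLA-DOA, part of the peptide exchange regulator HLA-DO, fell in LP-1 by 1.30, and HLA-DMB, part of the exchanger HLA-DM, fell by 1.37 in LP-1 and 0.56 in U266. CD74, the invariant chain, fell in LP-1 only (-0.80 against 0.012), and the class II master regulator CIITA had changes of -0.71 and -0.59 with no called difference. Among 12 myeloma surface antigens the line difference was called in 7. CD44, ITGA4 and ITGB7, all adhesion molecules, rose in LP-1 and fell in U266, SDC1 fell further in LP-1, and CXCR4, CD48 and LY9 fell in LP-1 only. ITGA4 and ITGB7, which pair as an integrin, changed by 0.66 and 0.58 in LP-1 and by -0.84 and -0.37 in U266.

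Of 30 ATF4 targets, 28 rose in LP-1 and 29 in U266 (medians 1.79 and 1.21). The line difference was more positive in LP-1 in 20 and more negative in 5. ATF4 itself rose in both, by 0.65 ± 0.16 and 0.84 ± 0.060, with no called difference (adjusted p = 0.427, 95% limits -0.56 to 0.19). The 5 genes more positive in U266 were DDIT4, CTH, DDIT3, VEGFA and PPP1R15A. DDIT3, the death-linked factor CHOP, went from 48.3, 47.6 and 68.7 FPKM to 182, 186 and 194 FPKM in LP-1 and from 11.7, 12.7 and 13.9 FPKM to 97.8, 96.9 and 96.4 FPKM in U266. LP-1 ended higher, and U266 rose more, with a line difference of -1.06 ± 0.17 (adjusted p = 6.5e-04). SESN2, a leucine sensor that restrains mTORC1, rose by 3.69 ± 0.15 in LP-1 and 2.66 ± 0.055 in U266, and TRIB3, a pseudokinase that dampens ATF4, by 3.23 ± 0.079 and 2.64 ± 0.063. ATF3 and CHAC1 rose in both lines with no called difference. The 95% limits of their line differences were -0.49 to 0.084 and -0.85 to -0.088 (adjusted p = 0.0550 for CHAC1), and CHAC1 was called under 8 of the 26 alternatives. Transporters for amino acids led the genes that rose more in LP-1, among them SLC1A4, SLC6A9, SLC38A2, SLC7A1 and SLC7A11. SLC7A11, the cystine importer that feeds glutathione, went from 0.530, 0.480 and 0.330 FPKM to 10.7, 10.8 and 9.62 FPKM in LP-1 and from 12.6, 11.5 and 12.2 FPKM to 49.2, 52.4 and 44.9 FPKM in U266. It was almost absent from LP-1 controls, and its line difference of 1.05 ± 0.12 turned to -0.16 with a pseudocount of 5.

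Of 20 cytosolic aminoacyl-tRNA synthetases, which charge tRNAs, 14 rose in LP-1 and 12 in U266, and 15 were called more positive in LP-1 (median line difference 0.60). WARS1 went from 26, 26.3 and 19.4 FPKM to 115, 117 and 112 FPKM in LP-1 and from 71.8, 70.8 and 70.4 FPKM to 116, 117 and 113 FPKM in U266. The lines ended at one level after unequal rises, with a line difference of 1.53 ± 0.14 for WARS1 and 1.03 ± 0.10 for AARS1. In the heat shock list, 21 of 24 genes rose in LP-1 and 13 in U266, and 14 were called more positive in LP-1 and 2 more negative, HSPA6 and HSF2. HSPA6, a strictly inducible HSP70, went from 40.5, 37.6 and 52.4 FPKM to 168, 168 and 172 FPKM in LP-1 and from 1.02, 0.811 and 0.523 FPKM to 19.6, 17.4 and 18.5 FPKM in U266. LP-1 stood higher in both groups and U266 rose further from near 0 (line difference -1.51 ± 0.17), and with a pseudocount of 5 the difference was no longer called (-0.17). HSPA8, DNAJA1, DNAJB6, HSP90AA1, HSP90AB1 and AHSA1, chaperones and co-chaperones of the cytosol, rose in LP-1 only. HSF1, the master factor of the response, changed by 0.36 and -0.28, and HSF2 by -0.45 and 0.34, both in opposite directions. HSPA1A, whose copy HSPA1B can share its reads, rose in both lines with no called difference (95% limits -0.26 to 0.78).

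In the list of the unfolded protein response, 17 of 32 genes rose and 6 fell in LP-1, 9 rose and 10 fell in U266, and the line difference was more positive in LP-1 in 15 and more negative in 4. Of the sensor genes, ERN1 and EIF2AK3 rose in LP-1. ERN1, which encodes the ER stress sensor IRE1, went from 4.07, 4.54 and 3.10 FPKM to 37.5, 37.2 and 36.4 FPKM in LP-1 and from 12.2, 10.6 and 11.5 FPKM to 38.3, 40.1 and 36.9 FPKM in U266. EIF2AK3, which encodes the sensor kinase PERK, went from 8.78, 9.30 and 6.96 FPKM to 16.1, 15.6 and 15.8 FPKM in LP-1 and from 95.6, 92.1 and 96.9 FPKM to 68.2, 72.4 and 67.7 FPKM in U266. ERN1 thus rose in both lines and EIF2AK3 in opposite directions, each with a line difference of 1.30 (± 0.14 and ± 0.12). SEL1L and SYVN1, the pair that retrieves misfolded ER proteins for degradation, changed by 1.34 and 0.97 in LP-1 and by 0.34 and -0.29 in U266. HSPA5, the ER chaperone BiP, fell further in LP-1, by 0.58 against 0.16, a difference lost under 5 of the 26 alternatives. XBP1 fell in both with no called difference (95% limits -0.59 to 0.081). Of 32 proteasome subunits, 13 rose and none fell in LP-1, and 4 rose and 3 fell in U266. The line difference was called more positive in LP-1 in 11, in 23 without the libraries that stood apart and in 0 to 24 over all alternatives. PSMD1 and PSMD2, scaffold subunits of the regulatory particle, rose in LP-1 only, by 0.83 ± 0.073 and 0.69 ± 0.080.

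MT2A and MT1X had the largest DHA changes of all tested genes in both lines. Metallothioneins bind zinc and copper, and SLC30A1 exports zinc. MT2A went from 4.56, 4.78 and 6.74 FPKM to 352, 344 and 297 FPKM in LP-1 and from 0.851, 2.04 and 1.11 FPKM to 205, 204 and 196 FPKM in U266. MT1X went from 5.52, 4.76 and 7.21 FPKM to 214, 218 and 215 FPKM in LP-1 and from 0.386, 0.878 and 0.622 FPKM to 98.6, 82.2 and 94 FPKM in U266. LP-1 was the higher line in both groups, and the log2 changes were larger in U266, which started near 0. The line differences, -0.75 ± 0.24 for MT2A and -0.83 ± 0.19 for MT1X, shrank to -0.011 and turned to 0.26 with a pseudocount of 5. The call of MT2A was lost under 9 of the 26 alternatives, 5 of which left out a single library. SLC30A1 went from 4.42, 4.33 and 4.60 FPKM to 109, 108 and 112 FPKM in LP-1 and from 13.7, 13.4 and 15.3 FPKM to 102, 109 and 88.4 FPKM in U266. Here the DHA levels were alike and the LP-1 rise was the larger, with a line difference of 1.61 ± 0.11 (adjusted p = 3.1e-06), called in all 26 alternatives. MTF1, the factor that binds the metal response element, rose by 0.71 and 0.40 with no called difference. The core of that element, TGCNCNC, searched on both strands, was in all 4 tested members of the list, but also in 63.5% of the promoters of tested genes and 55.2% of all promoters. The promoters of MT2A (chr16:56608334-56608633, plus strand, 8 matches) and SLC30A1 (chr1:211579112-211579411, minus strand, 2 matches) are shown because MT2A rose more in U266 and SLC30A1 more in LP-1, with the matches in capitals.
MT2A: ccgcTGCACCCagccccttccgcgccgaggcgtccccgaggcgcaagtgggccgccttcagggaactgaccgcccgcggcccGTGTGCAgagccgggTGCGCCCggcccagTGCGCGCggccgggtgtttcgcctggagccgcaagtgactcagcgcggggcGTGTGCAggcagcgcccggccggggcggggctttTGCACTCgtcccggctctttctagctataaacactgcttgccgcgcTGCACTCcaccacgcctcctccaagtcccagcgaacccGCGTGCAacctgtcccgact
SLC30A1: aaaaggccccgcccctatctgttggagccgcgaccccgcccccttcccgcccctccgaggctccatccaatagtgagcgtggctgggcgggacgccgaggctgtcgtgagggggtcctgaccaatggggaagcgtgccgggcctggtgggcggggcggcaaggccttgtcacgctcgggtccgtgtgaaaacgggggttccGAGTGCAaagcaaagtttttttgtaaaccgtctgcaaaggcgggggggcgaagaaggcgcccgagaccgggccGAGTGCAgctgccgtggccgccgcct
The number of matches differed between the promoters, and its part in the line difference was not tested. Metallothionein genes are alike in sequence, and their reads may be split between copies.

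Of 78 tested genes for cytosolic ribosomal proteins, none rose and 26 fell in LP-1, 2 rose and 5 fell in U266, and 17 were called more negative in LP-1 (median line difference -0.58). RPL13A went from 523, 449.5 and 889.6 FPKM to 344, 357 and 334 FPKM in LP-1 and from 534, 579 and 555 FPKM to 610.0, 585 and 551 FPKM in U266. The highest LP-1 control of RPL13A was replicate 3, the library in which this whole family was high, and its line difference was lost under 10 of the 26 alternatives. Without that library and U266 DHA replicate 3 the median line difference was -0.37 and 50 of 78 were called, and over all alternatives the count ran from 0 to 74. Leaving out LP-1 DMSO replicate 2 or 3 alone gave 73 and 45 called genes, and leaving out LP-1 DHA replicate 1, 2 or 3 gave 7, 6 and 7. RPS28 fell in LP-1 by 0.76 and had a change of 0.055 ± 0.054 in U266. These genes have many processed copies in the genome, which can share their reads. Of 59 nuclear-encoded respiratory chain genes, 17 fell in LP-1 and 28 in U266, with a called line difference in 7. NDUFV2, a subunit of complex I, fell in LP-1 only (-0.58 ± 0.16, line difference -0.78 ± 0.20), and NDUFA13 was called for the line difference (-0.90 ± 0.32, adjusted p = 0.0463) though in neither line alone, and lost this call under 14 of the 26 alternatives. Of 73 mitochondrial ribosomal protein genes, 4 were called more positive and 6 more negative in LP-1, among them MRPS28 (line difference -1.09 ± 0.26) and MRPL34 (line difference -0.73 ± 0.22, lost under 6 of the 26 alternatives).

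**Figure D5:**
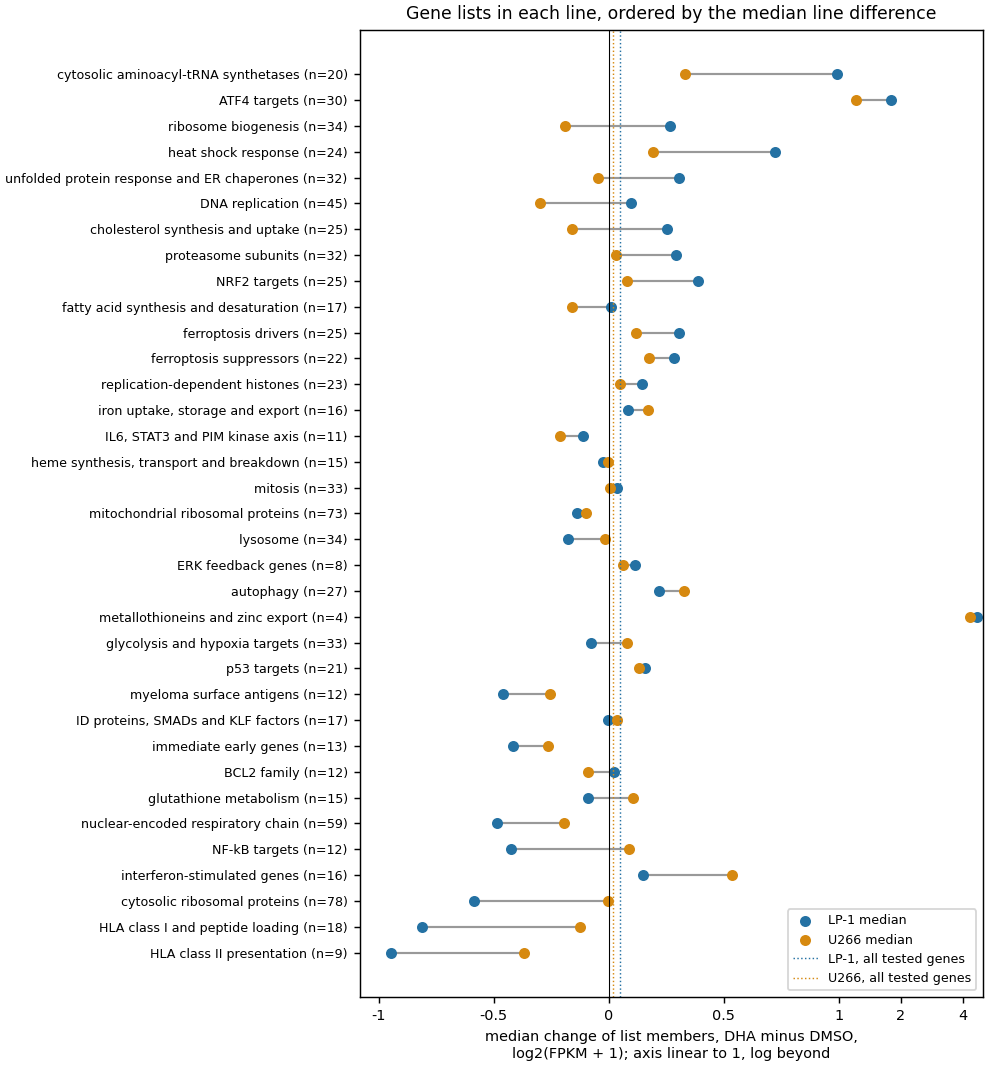
Median DHA change of the tested members of each gene list, in log2(FPKM + 1), for LP-1 (blue) and U266 (orange), ordered by the median line difference, with dotted lines for all tested genes and an axis that is linear up to 1 and logarithmic beyond. LP-1 lies furthest to the right of U266 in the aminoacyl-tRNA synthetase list (0.99 against 0.33) and furthest to the left in the HLA class I list (-0.81 against -0.12).

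Iron and redox genes, which the study's title points to, had called line differences in both directions. So did all tested genes, 18.5% more positive and 16% more negative in LP-1. Of 25 tested ferroptosis drivers, 6 were called more positive and 5 more negative in LP-1, and of 22 suppressors 7 and 4. TFRC, the transferrin receptor that brings iron in, went from 16.4, 16 and 12.9 FPKM to 39, 40.2 and 39.6 FPKM in LP-1 and from 62.7, 60.7 and 60.3 FPKM to 147, 145 and 135 FPKM in U266. FTH1, the ferritin heavy chain, went from 446, 441 and 435 FPKM to 732, 715 and 691 FPKM and from 27.8, 38.4 and 28.4 FPKM to 49.7, 48 and 53.5 FPKM. Both rose in both lines, and the 95% limits of their line differences, -0.11 to 0.39 and -0.31 to 0.34, held 0. FTL, the ferritin light chain, rose in U266 only (line difference -0.80 ± 0.22, adjusted p = 0.0152), and the LP-1 controls of FTL spread over 7022, 6288 and 9102 FPKM against 5462, 5483 and 5322 FPKM with DHA. The line difference of FTL was no longer called under quantile normalization (-0.037), without the exon length trend (-0.43) or beyond 1.5-fold. NCOA4, the receptor for ferritin breakdown, and FBXL5, the iron sensor that degrades an iron regulatory protein, moved in opposite directions: NCOA4 changed by 0.22 and -0.21, and FBXL5 by -0.38 and 0.32, in LP-1 and U266. SLC25A37, the mitochondrial iron importer, rose in U266 only (0.77 ± 0.12 against -0.31 ± 0.15). In the iron list 4 of 16 genes were called more positive and 5 more negative in LP-1, and in the heme list 3 and 2 of 15. BLVRB, a biliverdin reductase, fell in LP-1 and rose in U266 (line difference -1.0 ± 0.18), BACH1, the heme-sensing repressor, rose more in LP-1 (line difference 0.55 ± 0.11), and HMOX1, heme oxygenase 1, rose from 4.09 ± 1.08 to 24.4 ± 0.639 FPKM in LP-1 and from 16.6 ± 0.866 to 61.9 ± 3.62 FPKM in U266. The line difference of HMOX1, 0.50 ± 0.17 (adjusted p = 0.0394), was lost under 14 of the 26 alternatives.

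Of 25 NRF2 targets, 10 were called more positive and 3 more negative in LP-1. GCLM, a subunit of the enzyme that begins glutathione synthesis, went from 4.28, 4.64 and 4.76 FPKM to 16.5, 16.9 and 16 FPKM in LP-1 and from 6.33, 5.79 and 6.13 FPKM to 9.22, 10.3 and 8.86 FPKM in U266. GCLM rose more in LP-1 (line difference 1.09 ± 0.10), while NQO1, a classical NRF2 target, was called in neither line (95% limits of the line difference -0.11 to 0.79). GPX4, the enzyme that removes lipid peroxides, was at 59.1, 48.5 and 99.2 FPKM in LP-1 controls and 43.6, 44.1 and 44.4 FPKM with DHA, and at 184, 212 and 182 and 180.4, 176 and 158 FPKM in U266. It was called in neither line nor for the difference (95% limits -0.99 to 0.18), although the DHA values lay below all controls in both lines, and without LP-1 DMSO replicate 2 its line difference was called at -0.62. Of 15 glutathione genes 4 were called more positive and 3 more negative. GSTO1, a glutathione transferase, fell in LP-1 and rose in U266 (line difference -1.39 ± 0.30), as did SAT1, a polyamine-degrading enzyme (line difference -1.40 ± 0.18), and ACSF2, an acyl-CoA synthetase counted as a ferroptosis driver, fell in LP-1 only (-0.92 ± 0.10).

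Survival and signalling genes were mixed, as were all tested genes (18.5% more positive and 16% more negative in LP-1). In the p53 target list 5 of 21 were called more positive and 8 more negative in LP-1, and CDKN1A, CCNG1, FDXR and AEN moved in opposite directions. CDKN1A, the cell cycle inhibitor p21, fell in LP-1 from 10.6, 9.73 and 9.28 FPKM to 6.59, 6.12 and 6.95 FPKM and rose in U266 from 25.4, 24.1 and 25.2 FPKM to 35.2, 32.8 and 31.3 FPKM. CCNG1 fell in LP-1 from 296 ± 42.2 to 145 ± 6.45 FPKM and rose in U266 from 27.8 ± 0.485 to 32.7 ± 2.56 FPKM, while AEN, an apoptosis-linked nuclease, went the other way (line difference 1.14 ± 0.12). The p53 targets thus had no common direction, and their list medians, 0.16 and 0.13, were close while the median line difference was -0.24. In the BCL2 family, 4 of 12 were more positive and 3 more negative in LP-1. PMAIP1, the death activator NOXA, rose in LP-1 only, from 20.4, 16.5 and 26 FPKM to 62.8, 62.6 and 70.8 FPKM, against 2.92, 2.99 and 3.18 and 3.77, 1.80 and 1.72 FPKM in U266. BBC3, the death activator PUMA, rose in U266 only, from 0.861, 0.878 and 0.867 FPKM to 1.80, 3.25 and 3.26 FPKM, against 4.0, 3.46 and 5.33 and 5.01, 5.31 and 4.99 FPKM in LP-1. PMAIP1 and BBC3 thus rose in different lines, with line differences of 1.90 ± 0.28 and -0.76 ± 0.23. That of BBC3 was lost under 6 of the 26 alternatives, 4 of which left out a single library, and was -0.27 with a pseudocount of 5. MCL1, a survival protein of plasma cells, fell by 0.67 in LP-1 and 0.34 in U266, and the difference (-0.33 ± 0.10, adjusted p = 0.0206) was lost under 6 of the 26 alternatives.

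Of 12 NF-kB targets 1 was more positive, CCL3, and 6 more negative in LP-1, and ICAM1, an adhesion receptor, fell in LP-1 and rose in U266 (line difference -1.12 ± 0.23). Over all tested genes 18.5% were called more positive and 16% more negative. Of 13 immediate early genes 2 were more positive and 5 more negative. JUNB fell further in LP-1, from 58 ± 9.79 to 14.4 ± 0.804 FPKM against 50.9 ± 3.33 to 35.8 ± 1.12 FPKM in U266, and EGR1, an early growth response factor, fell in LP-1 only, from 2.32 ± 0.578 to 0.257 ± 0.0404 FPKM. Of 8 ERK feedback genes 3 were called in each direction. SPRED2, an inhibitor of RAF activation, rose in LP-1 only (1.23 ± 0.17), and ETV5, a factor induced by ERK, rose more in LP-1 (line difference 0.91 ± 0.092). In the list of the IL6, STAT3 and PIM axis 2 of 11 were called in each direction. IL6ST, the shared receptor chain gp130, rose in LP-1 from 39.1, 45.5 and 28.3 FPKM to 88.8, 87.2 and 83.9 FPKM and fell in U266 from 58.3, 50.6 and 55.5 FPKM to 47.8, 49.4 and 44.1 FPKM, and the kinase JAK1 rose in LP-1 only (0.44 ± 0.13). U266 makes its own IL6, as is known of this line, and IL6 was not tested, since LP-1 libraries listed it at 0 to 0.03 FPKM and U266 libraries at 1.54 to 3.50 FPKM. In the list of ID proteins, SMADs and KLF factors 2 of 17 were more positive and 4 more negative in LP-1.

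Among glycolysis and hypoxia targets 3 of 33 were called more positive and 12 more negative in LP-1, with ADM, DDIT4 and P4HA2, a collagen prolyl hydroxylase, at the head. P4HA2 had changes of -1.78 in LP-1 and 0.32 in U266. Glycolytic enzymes were found on both sides: PKM, PFKP and LDHA were the 3 genes more positive in LP-1, and ALDOC, ENO2 and ALDOA were among the more negative ones. Of 27 autophagy genes 9 rose in LP-1 and 16 in U266, and 3 were called more positive and 9 more negative in LP-1. GABARAPL1, which coats autophagosomes, rose in U266 only, from 7.23, 6.78 and 6.38 FPKM to 15.2, 14 and 16 FPKM, and lay at 1.08, 0.930 and 0.850 and 1.25, 1.01 and 1.01 FPKM in LP-1. ULK1, the kinase that starts autophagy, and MAP1LC3B, of the same coat, also rose in U266 only, by 0.91 and 1.10. OPTN, a cargo receptor, fell in LP-1 and rose in U266 (line difference -1.18 ± 0.11), while the receptor SQSTM1 rose more in LP-1 (1.26 against 0.58). Of 34 lysosome genes 4 were more positive and 10 more negative in LP-1, against 18.5% and 16% of all tested genes. The protease CTSB fell in LP-1 only, from 48.2 ± 3.06 to 17 ± 0.350 FPKM, with 14.2 ± 0.381 and 14.7 ± 0.595 FPKM in U266, and so did NPC2, the sterol carrier of the lysosome lumen (-1.03 ± 0.18). Of the plasma cell markers 3 of 9 tested were more positive and 2 more negative in LP-1, and PRDM1, a master factor of plasma cells, rose in LP-1 and fell in U266. Among marker genes of other lineages only 1 B cell and 1 erythroid gene were tested, and the erythroid one, EPOR, fell in LP-1 and rose in U266.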

How the data were processed

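The RNA-seq libraries, 3 for each of 4 groups, were built from total RNA with the SMARTER mRNA-Seq kit, per the labels' protocols. The authors deposited 1 FPKM table for each line, and no step was applied to the FPKM values before the log2 transform used here. Aligner, annotation and strand setting were not given in the sources used here. Although the tables hold human genes, the builds in the submitters' processing notes, GRCm38 and mm10, are mouse builds.

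The LP-1 table gives Ensembl IDs with symbols and the U266 table symbols. Of 19130 U266 symbols, 18613 matched a GENCODE v29 gene name, 6 a current symbol and 130 a RefSeq synonym, 381 had no match, and 26 LP-1 and 2 U266 entries were ambiguous and left out. Library totals were recovered from the step that 1 read makes in the FPKM of each gene, which gave whole reads within 0.1 read for 87.9% to 95.8% of values. At these depths 3 reads on 2 kb of exon equal 0.0687 to 0.145 FPKM, and such limits cover counting error only. A change of log2(FPKM + 1) understates the change of low genes.

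Each line was fitted by itself for its DHA change, and all 12 libraries together for the line difference (limma 3.58.1 in R 4.3.3, variance trend, two-sided, Benjamini-Hochberg over 8931 genes). Tables were handled in Python 3.11.15 with pandas 2.3.3 and numpy 2.4.6 and plots drawn with matplotlib 3.10.9. The fits were tested on simulated data. A gene was in opposite directions, in one line only or in the same direction by the calls in each line, always with a called line difference.

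Genes were named by a rule: 5 FPKM or more on average in the higher group of a called line, then the 8 largest line differences in each opposite direction, the 5 largest changes of each one-line class with the other line within 1.5-fold, the 3 largest differences in each same-direction class, up to 2 called members of each gene list, and a fixed set. All but the list members and the fixed set also had to have separated groups in each called line. Other list members printed were chosen after their values were seen. Some genes that the rule named are not reported here. The members and lists were chosen with earlier results of these data known. The labels number replicates in each group, but deviations of same-numbered libraries correlated at 0.18, 0.043 and 0.34 in LP-1 and at -0.049, -0.12 and -0.045 in U266, so the numbers were not treated as pairs. Alternatives changed the pseudocount, filter, scaling, variance model, threshold, fit and libraries. Those without both libraries that stood apart and without the exon length trend were added after seeing the data.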

Additional observations from a re-analysis of the deposited data

Results flagged for a closer look

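In 16 named genes every DHA library moved one way in LP-1 and the other way in U266, and the line difference was itself tested (limma, adjusted p under 0.05 in each). The genes were picked by these traits and by the size of the line difference. Neither the separation nor the call is therefore further support. Those that rose in LP-1 and fell in U266 were TRIB1 (line difference 2.37), MYC (2.09), KCNA3 (2.02), CCL3 (1.92), HIPK2 (1.81), SGK1 (1.80), CD44 (1.76) and RND3 (1.60). Those that fell in LP-1 and rose in U266 were SLC44A2 (-3.34), ADM (-3.18), IFI6 (-2.52), NFIL3 (-1.74), YPEL5 (-1.68), LTBP4 (-1.61), IRF2BPL (-1.59) and DBP (-1.55). The filter of a mean of at least 5 FPKM in each line left some of the 16, such as SGK1 and SLC44A2, untested. Where tested, HIPK2 alone of the 16 lost the call of its line difference under an alternative, the one that asked for more than 1.5-fold. Under that alternative, 0 tested genes were called up in LP-1 and down in U266, and 2 the reverse. At most 2 of the 16 thus kept their opposite calls in the single lines.

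Genes that reached the expression minimum in one line only carried a signal outside the comparison. Of 757 such genes in LP-1, 426 passed the test of DHA against DMSO (56.3%), and of 1469 in U266, 475 passed (32.3%).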

How the results depend on the processing

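Of the 109 named genes with a called line difference, 51 lost the call in at least 1 of the 26 alternatives, most often when a change beyond 1.5-fold was required. The other 58 include SLC7A11, whose difference changed sign and was not called with a pseudocount of 5 (limma, adjusted p = 0.155). They also include genes of low level that the filter of a mean of at least 5 FPKM in each line left untested. Arms of 2 or 3 libraries, the wide LP-1 controls and the library depth limit what small changes can be called. Leaving out single libraries gave 1281 to 3210 LP-1 genes higher and 1135 to 2712 lower, 1636 to 2029 U266 genes higher and 1539 to 1905 lower, 1259 to 2267 line differences more positive and 1078 to 1999 more negative in LP-1, 108 to 425 genes up in LP-1 and down in U266, 87 to 254 in the reverse direction, 832 to 2006 called in LP-1 only and 474 to 769 in U266 only. The extremes for LP-1 came without LP-1 DMSO replicate 3 (425 and 254 genes in opposite directions) and without LP-1 DHA replicates 1, 2 or 3 (110, 108 and 119 up in LP-1, 88, 87 and 97 down), and without LP-1 DMSO replicate 1 there were 160 up in LP-1. Without both libraries that stood apart these were 382 and 259. With the replicate block, LP-1 had 2178 genes higher and 1766 lower, U266 1872 and 1752, the line difference 1542 and 1341, with 207 and 135 in opposite directions, 1346 in LP-1 only and 627 in U266 only. The block ended the call of MCL1 alone among named genes.

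With a mean of at least 5 FPKM, 1475 LP-1 genes were higher and 919 lower, 1286 U266 genes higher, 711 line differences more negative, 66 genes down in LP-1 and up in U266 and 736 called in LP-1 only, with fewer genes tested. Array weights gave 4045 and 3666 LP-1 genes, 2943 and 2827 line differences, 572 and 418 opposite genes, 2830 in LP-1 only and 450 in U266 only. Beyond 1.5-fold there were 208 and 193 LP-1 genes, 127 and 53 U266 genes, 100 and 108 line differences, 0 and 2 opposite genes, 108 in LP-1 only and 21 in U266 only. Testing each line as a contrast among all 12 libraries gave 1110 U266 genes lower and 460 in U266 only.

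Among called line differences, a pseudocount of 5 turned MT1X to 0.26 and SLC7A11 to -0.16. Uncalled ones near 0 changed sign: TFRC was -0.0047 under quantile normalization and -0.00023 without both libraries. FTH1 was -0.0093 with TMM-style scaling, -0.013 with the median subtracted, -0.00020 with array weights and from -0.13 to 0.097 without single libraries. Quantile normalization put ATF4 at 0.095 and XBP1 at 0.12, and a pseudocount of 0.1 put HSPA1A at -0.15. The cause of these shifts was not tested. Median line differences of the heme, glutathione, mitosis, histone, IL6 axis, lysosome and mitochondrial ribosomal protein lists changed sign under at least 1 alternative.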

Other observations

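Metallothionein genes below the minimum in LP-1 had the largest DHA changes in U266. MT1G was at 0.281, 0.732 and 0.368 FPKM with DMSO and 810.1, 801 and 755 FPKM with DHA in U266, and MT1H at 0, 0.127 and 0 FPKM and 412, 384 and 363 FPKM. MT1E went from 2.49 ± 0.383 to 272 ± 19.8 FPKM. The LP-1 table listed MT1G and MT1H at 0 in all 6 libraries and MT1E at 0 to 0.37 FPKM, so the lines could not be compared for them, and near-identical copies may share reads. All genes of these paragraphs were picked after their values were seen. Of the 40 interferon list genes, 13 were tested in U266 alone, where 10 rose and 2, OAS1 and OAS3, fell, and XAF1 was tested in LP-1 alone, where it rose (log2 change 1.20). In U266, MX1, an antiviral GTPase, went from 5.05, 4.87 and 4.87 FPKM to 34.6, 31.3 and 33.5 FPKM and USP18, which removes ISG15 from proteins, from 1.15 ± 0.173 to 9.24 ± 1.60 FPKM. OAS1, an enzyme that senses double-stranded RNA, went from 109.9, 110.3 and 110.1 FPKM to 91.3, 92.7 and 87 FPKM. LP-1 listed MX1 at 0 throughout. GDF15, a stress-induced cytokine, rose in U266 from 0.648 ± 0.342 to 11.7 ± 1.09 FPKM, while CCND1, the cyclin D1 that a translocation drives in this line, fell from 235 ± 4.44 to 144 ± 7.50 FPKM. CD180, a surface receptor of B cells, fell from 27.7 ± 0.886 to 9.35 ± 0.567 FPKM, and TENT5C, a poly(A) polymerase often mutated in myeloma, from 155 ± 6.47 to 73.8 ± 1.94 FPKM.

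Among genes that passed the minimum in LP-1 alone, ANXA1, a phospholipid-binding protein, went from 0.170, 0.180 and 0.200 FPKM to 9.39, 9.33 and 10.4 FPKM and MSC, a basic helix-loop-helix repressor of B cells, from 6.18, 6.08 and 6.40 FPKM to 57.2, 58.6 and 55.8 FPKM. MAP1B, a microtubule-associated protein, rose from 6.27 ± 2.99 to 59.7 ± 4.54 FPKM. The nuclear receptor NR4A2 fell from 7.10, 7.51 and 5.14 FPKM to 0.280, 0.290 and 0.480 FPKM. HES7, a repressor of the Notch pathway, fell from 9.40 ± 1.54 to 0.947 ± 0.219 FPKM and SOX4, a factor of B cell development, from 53 ± 3.95 to 17.1 ± 0.889 FPKM. The integrin ITGAX and the chemokine receptor CCR1 fell from 42.5 ± 11.8 and 45.2 ± 8.76 FPKM to 11.3 ± 0.560 and 13.9 ± 0.823 FPKM. U266 listed these LP-1 genes at up to 3.83 FPKM (NR4A2). All changes named in these paragraphs passed the test within their line (limma, adjusted p = 0.00198 for OAS3 and at most 7.1e-04 for the others).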
